A study of Mus musculus with 11 samples.

Results

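The genes described here encode the proteins of the cytosolic ribosome. They were chosen by name, as protein-coding genes whose GRCm38 symbol begins with Rpl or Rps and a digit, or is Rplp0, Rplp1, Rplp2 or Rpsa, without the Rps6k kinases and without names that mark pseudogenes. The rule found 86 of the 55421 genes counted: 31 genes of the small (40S) subunit, 46 genes of the large (60S) subunit, and 9 copies or other proteins that carry a ribosomal name (Rpl3l, Rpl7l1, Rpl10l, Rpl22l1, Rpl36al, Rpl39l, Rps19bp1, Rps27l and Rps27rt). The members lay on 19 chromosomes, with 14 of them on chromosome 7. The rule uses names and no measured value, but the family was chosen with earlier results of these data known. Of the members, 84 passed the filter on low counts and were tested. The 2 that did not pass were Rpl10l, with 0 counts in all 11 libraries, and Rps27rt, with 9 counts in all.

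The study profiled poly(A) RNA of articular cartilage cut from mouse knees with a scalpel. DMM is the destabilization of the medial meniscus, an operation on the knee that is used as a model of osteoarthritis. DMM knees of mice labelled c-FosDCh gave 4 libraries, DMM knees of mice labelled c-FosWT gave 3, and contralateral knees of c-FosWT mice gave 4. All mice were of strain C57BL/6 and 14 weeks old, and were taken 4 weeks after DMM. The label c-FosDCh is taken to stand for loss of Fos from chondrocytes, while the driver of the deletion is not given in the sources used here. Each c-FosWT DMM library came from a mouse that also gave a contralateral library, no mouse gave 2 libraries to a group, and no contralateral knee of a c-FosDCh mouse was analysed here.

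Gene counts per library ranged from 13593454 to 18280558. The targeted gene did not follow the label in the poly(A) RNA of the whole tissue: Fos had 19.4, 10.9, 29.5 and 33.0 CPM in libraries labelled c-FosDCh, against 12.1, 14.1 and 9.01 CPM in operated c-FosWT knees and 17.1, 24.9, 22.01 and 15.7 CPM in contralateral libraries. The cartilage markers Acan, Col2a1 and Prg4 and the rest of the 18 listed were counted in every library, with summed levels of 24450 to 90260 CPM in libraries labelled c-FosDCh, 7088 to 19160 CPM in c-FosWT DMM libraries and 23250 to 44730 CPM in contralateral libraries. The libraries also held RNA of other tissues. A marrow score, averaging log2 CPM over 16 erythroid markers and 16 granulocyte markers, was 7.30, 7.38, 5.94 and 3.88 in libraries labelled c-FosDCh 1 to 4, 7.90, 8.23 and 8.70 in c-FosWT DMM libraries and 7.06, 6.37, 6.30 and 7.97 in contralateral libraries. The muscle score peaked in c-FosWT DMM library 1 and contralateral library 2, at 8.57 and 7.80. In bulk tissue, a lower share of one kind of cell and less RNA per cell cannot be told apart.

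A ribosome joins one 40S subunit, which reads the mRNA, with one 60S subunit, which forms the peptide bond and holds the exit tunnel. Most of its proteins are needed in equal amounts. The genes of ribosomal proteins are scattered over the genome, and their mRNAs are among the most abundant of growing and secreting cells. Their mRNAs also share a signature at the 5′ end, the TOP motif, a cytosine at the cap followed by an unbroken run of pyrimidines, through which mTORC1 and LARP1 govern their translation. Chondrocytes make large amounts of secreted matrix, while erythroid precursors of the marrow are among the cells most sensitive to a shortage of ribosomal proteins in mouse and human.

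Start sites of some members show the signature, and a few sites with and without a pyrimidine run are printed. RefSeq starts of build GRCm38.p6 were found for 66 of the 86 members and 57 of the 77 subunit genes. Each line below holds 30 bases around the annotated start on the coding strand, with the start in the middle. Capitals mark the longest run that opens with C, holds at least 5 bases of C or T, and begins within 10 bases of the start on either side. Runs were followed only to the last printed base.
Rpl38 (chr11:114668565-114668594, + strand): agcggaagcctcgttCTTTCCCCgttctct
Rps15a (chr7:118116133-118116162, - strand): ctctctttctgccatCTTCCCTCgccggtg
Rps18 (chr17:33955651-33955680, - strand): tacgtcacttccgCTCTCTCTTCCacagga
Rpl27a (chr7:109519180-109519209, + strand): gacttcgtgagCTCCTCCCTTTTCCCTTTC
Rpl15 (chr14:18270972-18271001, - strand): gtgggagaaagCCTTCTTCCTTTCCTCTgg
Rps16 (chr7:28350674-28350703, + strand): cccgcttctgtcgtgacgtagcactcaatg
Rpl4 (chr9:64173372-64173401, + strand): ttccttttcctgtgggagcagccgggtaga
In Rpl38 and Rps15a the run opened exactly at the annotated start, as in 13 of the 57 subunit genes (22.8%), against 3.0% of all tested genes with a RefSeq start. A run near the start was present in 34 of the 57 (59.6%), against 37.7% of all tested genes. The longest of those printed, in Rpl27a, held 19 bases up to the last printed base, and bases beyond it were not counted. Rps16 and Rpl4, the members that passed a test below, had no such run beginning within 10 bases of the start that RefSeq gives. Pyrimidine runs farther upstream, visible in both lines, were not counted. In GENCODE M21, Rpl4 begins at 64173375, on a C within its upstream run, so the lack of a run depends on the start used. Rps16 begins there at 28350652, before the printed bases, and that start was not examined.

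Ribosomal protein mRNAs took about 1% of all gene counts. Their share was 1.14, 0.928, 0.895 and 0.641% in libraries labelled c-FosDCh 1 to 4, against 1.10, 1.195 and 1.27% in c-FosWT DMM libraries and 1.16, 0.9504, 1.26 and 1.24% in contralateral libraries. The share was lowest in the library labelled c-FosDCh 4, and the 3 groups overlapped. Group means were 0.900 ± 0.203% (SD, n = 4), 1.189 ± 0.084% (n = 3) and 1.156 ± 0.144% (n = 4). The Wilson 95% interval of each share was at most 0.0112 percentage points wide, far narrower than the spread between libraries, and covers counting error only. Pseudogenes named after members (294, of which 183 had any count) added 0.259 to 0.367% of the members' own counts. Multimapping reads, 6.79 to 10.19% of reads, are not in gene counts. Reads that match a member and a pseudogene alike may thus be missing from both, so the shares are of assigned reads only.

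Levels of single genes are compared per kilobase of the principal transcript. Rps14, a protein of the 40S platform, and the stalk protein Rplp1 stood highest, at 683 and 679.8 CPM per kb over all libraries. Rps12 at 523.7, Rpl8 at 376.7 and Rps18 at 328.4 CPM per kb were also among the highest. The lowest subunit genes were Rpl24 at 1.44, Rps10 at 5.92 and Rpl13a at 15.9 CPM per kb. The exons of these 3 are overlapped on the same strand by other annotated genes: Gm28037 covers 71.5% of Rpl24, RPS10-NUDT3 53.6% of Rps10 and Gm45713 with a microRNA gene 59.3% of Rpl13a. Reads that fall in 2 genes are set apart as ambiguous in the deposited counts, so these low levels are uncertain. The strand setting of the counts is not stated, so overlaps on the opposite strand may matter too. The largest of these among subunit genes cover 68.3% of Rpl35, 55.4% of Rpl23a, 46.6% of Rpl5 and 34.7% of Rpl30. Uncertainty from close copies touches most of the family. Of the stretches of 75 bases (the read length) in a subunit gene's transcript, a median of 50.3% (range 0 to 98.5%) also occurred in a transcript of another gene, while Rps3 shared none.

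The subunit genes moved together from library to library. The Pearson correlation of each gene's log2 CPM with the mean of all other subunit genes over the 11 libraries had a median of 0.868, and 55 of 77 reached 0.8. These values describe libraries that share depth, scaling and cell makeup. The mean log2 CPM of the 77 genes was 6.73, 6.47, 6.46 and 6.19 in libraries labelled c-FosDCh 1 to 4, against 6.67, 6.62 and 6.90 in c-FosWT DMM libraries and 6.70, 6.45, 6.89 and 6.83 in contralateral libraries. The library labelled c-FosDCh 4 held the lowest value of 65 of the 77 genes, while c-FosWT DMM library 3 held the highest of 33, contralateral library 3 of 23 and contralateral library 4 of 13. Contralateral library 2, one of those rich in muscle RNA, lay below the genes' own means for all but 4 of the 77.

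**Figure D1:**
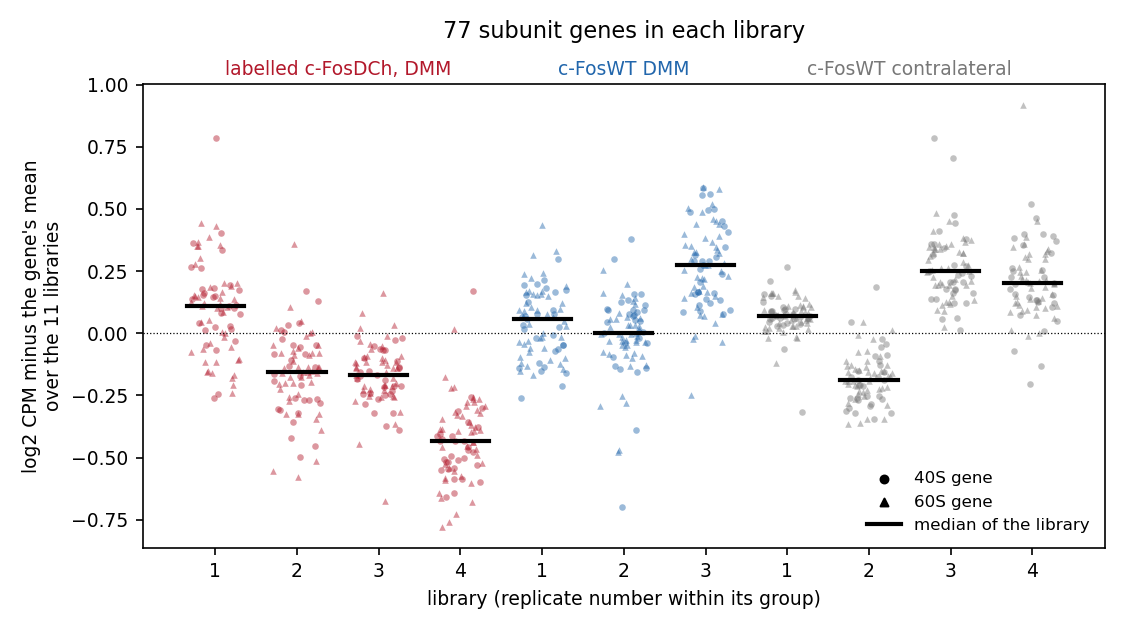
Each point is one of 77 subunit genes in one library, as its log2 CPM minus its own mean over the 11 libraries (y axis); libraries stand on the x axis by group, circles are 40S genes, triangles 60S genes and black bars library medians. The median was -0.44 in the library labelled c-FosDCh 4 and 0.28 in c-FosWT DMM library 3, and the first library labelled c-FosDCh, at 0.11, lay above its group's other libraries.

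Both subunits took part alike. The log2 ratio of summed 40S to summed 60S counts, which needs no scaling between libraries, averaged -0.206 ± 0.076 in libraries labelled c-FosDCh (SD, n = 4), -0.218 ± 0.053 in c-FosWT DMM libraries (n = 3) and -0.254 ± 0.013 in contralateral libraries (n = 4). The groups differed by less than the spread among libraries labelled c-FosDCh. Over the libraries, the SD of log2 CPM had a median of 0.254 for the 75 subunit genes with a mean of at least 10 CPM, close to the 0.266 of all 10423 tested genes at that level. Among the most variable of them were Rpl23a, Rps21 and Rpl36a (SD 0.517, 0.402 and 0.357), and the least variable named members were Rpl7l1, Rpl22l1, Rpl9 and Rpl15 (0.144, 0.150, 0.161 and 0.162).

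A few genes departed from the shared pattern. The lowest correlation was that of Rps10, at 0.128, followed by Rpl10 at 0.344, Rpl34 at 0.545, Rps14 at 0.577 and Rpl24 at 0.586. Rps10 rests on 63 to 123 counts per library and Rpl24 on 8 to 22. Other genes overlap 53.6% and 71.5% of their exons on the same strand. Of the stretches of read length in Rpl10, 91.9% occur in transcripts of other genes. Whether these limits lower the correlations was not tested. Rps14, which is lost with a stretch of chromosome in one human myelodysplastic syndrome, had 684.6, 344.5, 380.8 and 300.4 CPM in libraries labelled c-FosDCh, against 332.1, 360.2 and 485.8 CPM in c-FosWT DMM libraries, with 406.3, 363.3, 465.8 and 362.4 CPM in contralateral libraries. The value in the library labelled c-FosDCh 1 stood above all others, and its cause was not tested. Rpl10, which joins the 60S subunit last, near the peptidyl transferase centre, ranged narrowly, at 111.7 to 135.1 CPM in libraries labelled c-FosDCh, 110.7 to 142.0 CPM in c-FosWT DMM libraries and 120.5 to 164.8 CPM in contralateral libraries.

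The first comparison set DMM knees of mice labelled c-FosDCh against DMM knees of c-FosWT mice. Lower levels of most members went with the label, but few were separable from the spread between libraries. In edgeR's quasi-likelihood test over 18125 genes, 2 of 84 members (2.38%) passed a Benjamini-Hochberg adjusted p of 0.05, both lower in libraries labelled c-FosDCh, while 3.79% of all tested genes passed as lower, 10.6% as higher and 14.4% in either direction. The members' share of lower calls was thus not above that of all genes. The median log2 fold change was -0.25 over the members, with quartiles of -0.33 and -0.18, against -0.01 over all genes and 0.01 over the 4135 genes with at least 50 CPM. It was -0.27 over the 40S genes and -0.25 over the 60S genes. Negative values were found in 72 of 77 subunit genes (93.5%), against 50.5% of all genes, and positive values in 5 (6.49%), against 49.5%. The groups did not overlap, with the libraries labelled c-FosDCh lower, in 17 of 84 members (20.2%), against 15.8% of all genes, and in 0 members with them higher, against 17.2%. An unadjusted p under 0.05 with a lower level was reached by 14 members (16.7%), against 17.1% of all genes.

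**Figure D2:**
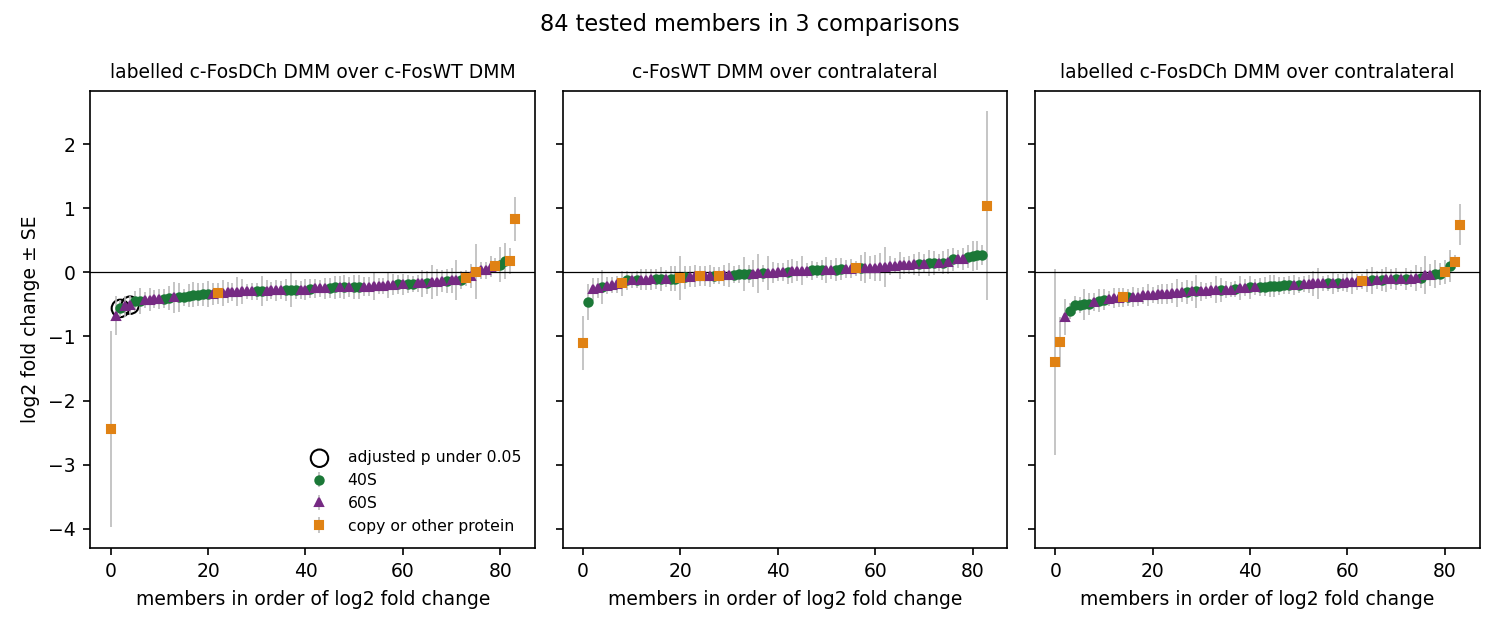
Log2 fold changes with standard errors (y axis) of the 84 tested members, in rising order (x axis), for 3 comparisons; circles are 40S genes, triangles 60S genes, squares copies or other proteins, and rings mark an adjusted p under 0.05. Medians were -0.25, 0.01 and -0.23, and the rings, on Rps16 and Rpl4, occur in the first panel only.

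Rps16, a 40S protein whose tail reaches the site of the peptidyl tRNA, had 48.3, 40.9, 51.8 and 38.5 CPM in libraries labelled c-FosDCh, against 66.2, 71.0 and 61.5 CPM in c-FosWT DMM libraries, with 69.6, 59.6, 78.4 and 64.4 CPM in contralateral libraries. Every library labelled c-FosDCh lay below every c-FosWT library. The log2 fold change between the DMM groups was -0.56 ± 0.13 (SE; edgeR adjusted p = 0.0333). Rpl4, which lines the exit tunnel of the 60S subunit, had 322.4, 317.8, 313.2 and 239.1 CPM in libraries labelled c-FosDCh, against 419.1, 428.1 and 428.5 CPM in c-FosWT DMM libraries, with 381.6, 314.4, 426.1 and 428.7 CPM in contralateral libraries. The DMM groups were apart, whereas contralateral library 2 lay within the range of the libraries labelled c-FosDCh. Rpl4 differed by -0.51 ± 0.15 between the DMM groups (edgeR adjusted p = 0.0461). In GRCm38, Rps16 lies on chromosome 7 from 28350652 to 28353155 and Rpl4 on chromosome 9 from 64173375 to 64178666, both on the + strand. Of their 75-base stretches, 35.5% and 8.5% occur in transcripts of other genes.

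The next members by p did not pass. Rpl10a, the protein of the L1 stalk, averaged 36.4 ± 4.22 CPM in libraries labelled c-FosDCh and 49.0 ± 7.12 CPM in c-FosWT DMM libraries, a log2 difference of -0.43 ± 0.13 (edgeR adjusted p = 0.0517). Rpl6, a 60S protein, averaged 72.0 ± 10.2 and 103.9 ± 21.1 CPM in these groups (-0.53 ± 0.17, edgeR adjusted p = 0.0573). Rps25, a 40S protein needed for initiation at some viral internal entry sites, had 37.3, 37.0, 38.2 and 33.0 CPM in libraries labelled c-FosDCh, against 54.4, 40.3 and 48.2 CPM in c-FosWT DMM libraries, with 49.1, 42.9, 56.7 and 57.7 CPM in contralateral libraries. All 4 libraries labelled c-FosDCh lay below the other 7, at a difference of -0.39 ± 0.13 between the DMM groups (edgeR adjusted p = 0.0682).

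The calls rested on single libraries. The count of members passing was 2 with all libraries, 11 without the library labelled c-FosDCh 1, 4 without that labelled 2, 2 without contralateral library 4, 1 without c-FosWT DMM library 1 or contralateral library 3, and 0 without any one of the other 6 libraries. Without the libraries labelled c-FosDCh 3 and 4, and likewise without the 2 rich in muscle RNA, 0 members and 0 of all genes passed. The log2 fold change of Rps16 stayed between -0.64 and -0.50 and that of Rpl4 between -0.58 and -0.43 with any 1 library left out. The members' median was -0.38 without the library labelled c-FosDCh 1 and -0.14 without those labelled 3 and 4.

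**Figure D3:**
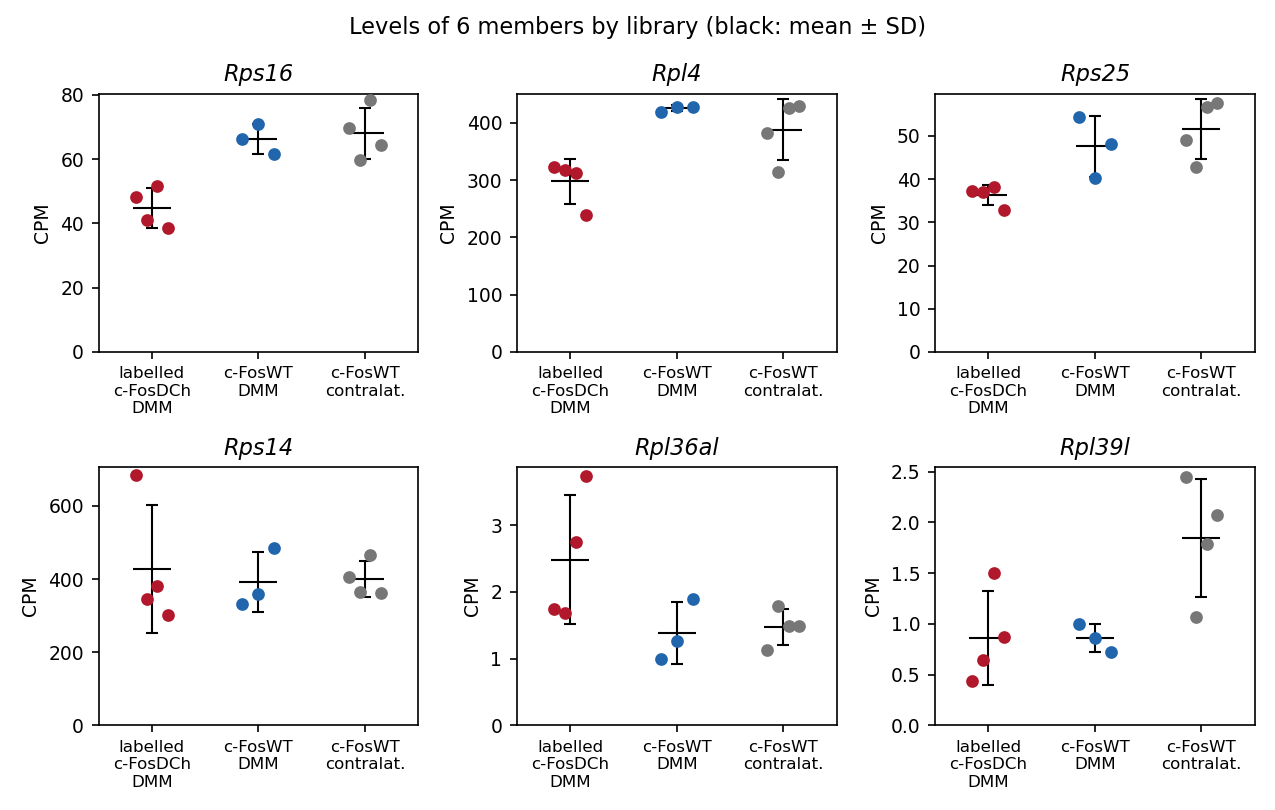
CPM (y axis, from 0) of 6 members in each library, by group; black bars are group means with SD. Rps16 and Rps25 lie lower in all 4 libraries labelled c-FosDCh than in any c-FosWT library, Rps14 has a single high library at 684.6 CPM, and Rpl36al and Rpl39l rest on few counts.

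Markers of other tissues moved with this comparison. Of 16 erythroid genes, all had a negative log2 fold change and 7 passed as lower, with summed levels of 565.2 to 4766 CPM in libraries labelled c-FosDCh against 8432 to 13880 CPM in c-FosWT DMM libraries. All 16 granulocyte genes were likewise negative with 0 passing (355 to 11940 against 8201 to 15470 CPM), as were all 13 B cell genes (62.7 to 358 against 256.4 to 740.7 CPM) and all 21 proliferation genes (411.2 to 1866 against 2488 to 3730 CPM). The only marker without a count in any library was Igll1, a B cell precursor gene, in the library labelled c-FosDCh 4. Of 14 macrophage and osteoclast genes, all were negative and 3 passed as lower (723.7 to 2322 against 2938 to 3422 CPM), among them Acp5, the osteoclast phosphatase. Of 18 muscle genes 17 were negative and 0 passed, and of 18 cartilage genes 14 were positive and 7 passed as higher, led by Sox9 at 275 ± 130.4 CPM in libraries labelled c-FosDCh and 50.6 ± 27.5 CPM in c-FosWT DMM libraries. With the marrow score as a covariate, the members' median log2 fold change was -0.01 and 0 members passed, while Rps16 was at -0.51, Rpl4 at -0.27, Rpl10a at -0.26 and Rpl6 at -0.21. The marrow scores of the DMM groups do not overlap, so the label and the marrow RNA cannot be told apart here. Of 12 osteoblast and osteocyte genes 1 passed, as higher (Alpl, the bone alkaline phosphatase).

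**Figure D4:**
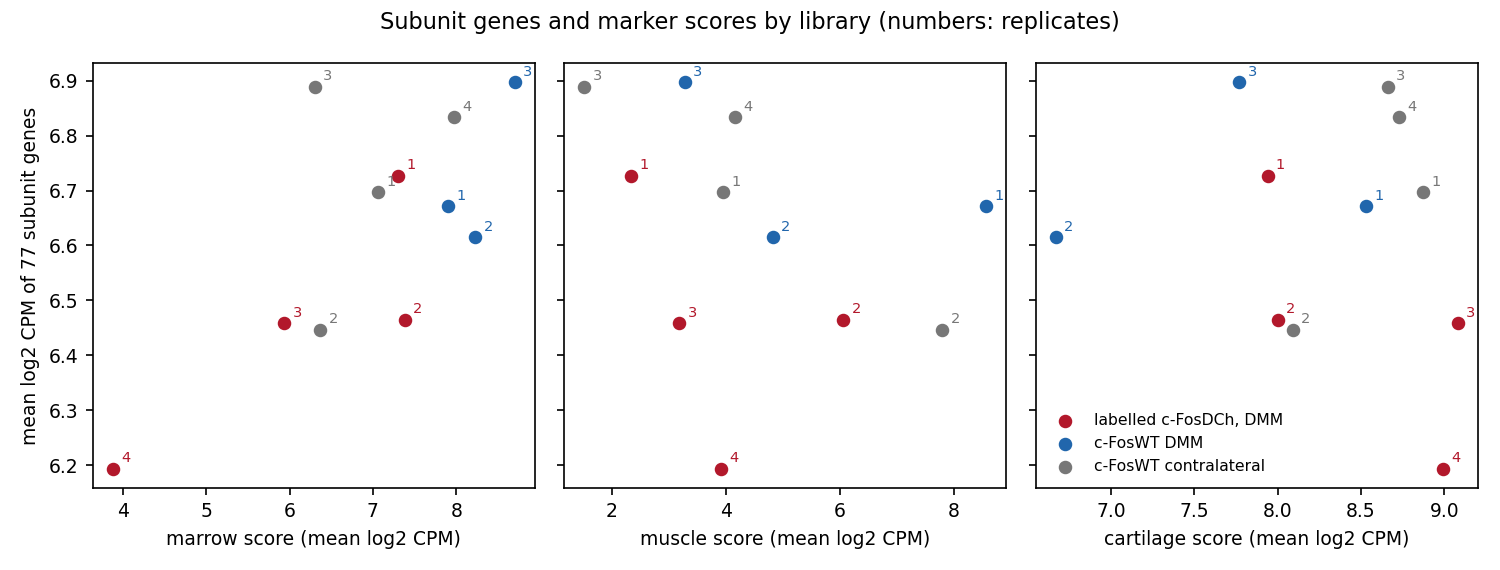
Mean log2 CPM of the 77 subunit genes (y axis) against the marrow, muscle and cartilage scores of the same library (x axes, mean log2 CPM of the marker genes); numbers are replicates. The library labelled c-FosDCh 4 is lowest in both the subunit mean, 6.19, and the marrow score, 3.88, and c-FosWT DMM library 3 is highest in both, at 6.90 and 8.70.

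Other genes of ribosome supply and translation gave the following counts in the same comparison. Of 15 elongation factors and other TOP mRNAs, 15 were negative and 3 passed as lower, with a median of -0.29. They were Naca, the ribosome-bound chaperone of nascent chains (58.4 ± 2.30 CPM in libraries labelled c-FosDCh, 80.6 ± 10.4 CPM in c-FosWT DMM libraries), the poly(A)-binding protein gene Pabpc1 (364.7 ± 150.4 and 888.3 ± 88.4 CPM), and the histone chaperone gene Nap1l1 (56.9 ± 11.5 and 83.2 ± 5.54 CPM). Of 60 genes of nucleolar ribosome assembly, 8 passed as lower and 1 as higher, with a median of -0.19. The lower ones with the smallest p were Utp14a (17.6 ± 1.83 and 24.6 ± 1.72 CPM), Mybbp1a (72.4 ± 4.81 and 99.4 ± 13.2 CPM) and Noc2l (44.9 ± 6.64 and 67.4 ± 10.1 CPM), and the higher one was Tsr2, a carrier of Rps26 (18.03 ± 2.64 and 11.8 ± 1.69 CPM). Of 38 initiation factors 3 passed as lower (Eif3c, Eif2s1 and Eif5), with a median of -0.17. Of 25 genes of RNA polymerases I and III and their factors 2 passed as lower (Polr3b and Taf1d), with a median of -0.06. Of 25 genes of mTOR and MYC control, 1 passed, as higher: Ddit4, an inhibitor of mTORC1 induced by stress, at 79.6 ± 35.7 CPM in libraries labelled c-FosDCh and 27.5 ± 7.62 CPM in c-FosWT DMM libraries.

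The second comparison set DMM knees against contralateral knees of c-FosWT mice, where the operation differs. The family as a whole lay near all genes: the median log2 fold change was 0.01 over the members, with quartiles of -0.08 and 0.09, against -0.01 over all genes, and 44 of 84 members were positive (52.4%), against 49.1% of all genes, and 40 were negative (47.6%), against 50.9%. In edgeR's test 0 members and 0 of 18125 genes (0%) passed, with a lowest adjusted p of 0.204 among members and 0.182 among all genes. DESeq2 called 0 members and 825 genes, and limma-voom 0 members. At an unadjusted p under 0.05, 1 member was lower (1.19%), against 12.7% of all genes, and 0 were higher, against 7.19%. With knees paired by animal in the 3 mice that gave both, the median was 0.08 and 0 members passed. All 16 erythroid, 16 granulocyte, 18 muscle and 21 proliferation genes were positive in this comparison, and 15 of 18 cartilage genes were negative, with 0 passing. Initiation factors and nucleolar assembly genes had positive values in 33 of 38 and 48 of 60 genes (medians 0.17 and 0.20), with 0 passing. The members' median was -0.16 with the marrow score as a covariate (-0.06 over all genes), 0.08 with the muscle score and -0.02 with the cartilage score, so its sign depended on the marker used, and 0 members passed in each.

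The 1 member was Rpl39l, a copy of Rpl39 best known from testis. It had 1.00, 0.859 and 0.723 CPM in c-FosWT DMM libraries, against 2.44, 1.07, 1.79 and 2.08 CPM in contralateral libraries. The groups did not overlap, and these levels rest on 13 to 17 and 15 to 39 counts. The log2 fold change was -1.10 ± 0.42 (edgeR unadjusted p = 0.0244, adjusted p = 0.204). The next by p were Rps2, which lines the mRNA entry channel, at 0.28 ± 0.16, Rps21 at -0.47 ± 0.28, Rpl22 at -0.25 ± 0.16 and Rpl10 at -0.21 ± 0.13, with edgeR adjusted p of 0.332 to 0.39 and groups that overlapped. These 4 values moved by over 1.5 times with 1 library left out. Rps2 was at 0.12 without c-FosWT DMM library 3, and without c-FosWT DMM library 2 or contralateral library 3 Rps21 was at -0.25 in both, Rpl22 at -0.15 and -0.16, and Rpl10 at -0.11 and -0.14. Rpl39l was at -0.52 with the cartilage score as a covariate.

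The libraries labelled c-FosDCh were also set against contralateral c-FosWT knees, where genotype label and operation differ together and cannot be told apart. The members stood lower here as well: the median log2 fold change was -0.23, with quartiles of -0.34 and -0.15, against 0.00 over all genes and 0.04 over genes with at least 50 CPM. All 46 genes of the 60S subunit and 30 of 31 of the 40S subunit were negative, against 50.3% of all genes, and 1 subunit gene was positive, against 49.7%. In edgeR's test 0 members and 0 genes (0%) passed, with a lowest adjusted p of 0.584, while DESeq2 called 36 genes and 1 member. An unadjusted p under 0.05 with a lower level was reached by 22 of 84 members (26.2%), against 3.7% of all genes, and with a higher level by 1 member, Rpl36al, against 4.65%. The groups did not overlap, with the libraries labelled c-FosDCh lower, in Rps16, Rps25, Rpl30 and Rps27l (4.76% of members), against 2.12% of all genes, and with them higher in 0 members, against 2.28%. These counts concern genes that moved together and include the same 4 libraries as the comparison between DMM groups. Without the library labelled c-FosDCh 4 the median was -0.12.

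The member called by DESeq2 was Rps16, at -0.60 ± 0.12 in edgeR's fit (unadjusted p = 0.000543, adjusted p = 0.584) and an adjusted p of 0.0194 in DESeq2. Among the next by p, Rps25 was at -0.51 ± 0.13, Rpl30 at -0.41 ± 0.12 and Rpl31 at -0.47 ± 0.14, each at an edgeR adjusted p of 0.584. Rpl30 averaged 44.5 ± 4.46 CPM in libraries labelled c-FosDCh and 59.0 ± 7.51 CPM in contralateral libraries, and Rpl31, which sits at the tunnel exit, 53.0 ± 8.11 and 73.1 ± 10.3 CPM. Contralateral libraries were nearer to libraries labelled c-FosDCh in marrow genes than c-FosWT DMM libraries were. Erythroid genes summed to 2430 to 7292 CPM in contralateral libraries and all 16 were negative with 0 passing (median -0.45), as were all 16 granulocyte genes (-0.33). All 13 B cell genes (median -0.99) and all 14 macrophage and osteoclast genes (-0.83; 723.7 to 2322 CPM in libraries labelled c-FosDCh against 2147 to 3146 CPM) were negative too, as were 16 of 18 muscle genes (-1.62), 20 of 21 proliferation genes (-0.36) and 9 of 12 osteoblast and osteocyte genes (-0.37), with 0 passing. Of 18 cartilage genes 12 were positive (median 0.20). With the marrow score as a covariate the members' median in this comparison was -0.13 and Rps16 was at -0.58.

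Members with roles beyond the core of the ribosome are given by level in the order of libraries labelled c-FosDCh, c-FosWT DMM and contralateral (mean ± SD in CPM, n = 4, 3 and 4). None of those in the next sentences passed in any comparison. Rpl5 and Rpl11, which with 5S rRNA hold back Mdm2 when ribosome assembly is disturbed, were at 78.9 ± 7.13, 96.9 ± 7.90 and 95.02 ± 11.2 CPM and at 133.3 ± 25.2, 163.8 ± 32.8 and 145.7 ± 22.9 CPM. Rps19 and Rps26, both mutated in human Diamond-Blackfan anaemia, were at 116.8 ± 19.2, 126.9 ± 6.04 and 131.4 ± 11.9 CPM and at 94.7 ± 21.7, 119.9 ± 13.1 and 114.4 ± 23.4 CPM. Rps6, the target of the S6 kinases, was at 105.0 ± 16.2, 123.5 ± 25.9 and 111.1 ± 15.6 CPM. The lowest mean of each of these 5 genes was that of the libraries labelled c-FosDCh.

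The stalk that recruits elongation factors is built of Rplp0, Rplp1 and Rplp2. Rplp0 was at 359.3 ± 20.02, 440.3 ± 48.0 and 408.3 ± 50.7 CPM, Rplp1 at 302.9 ± 59.5, 344.5 ± 34.1 and 371.6 ± 43.2 CPM, and Rplp2 at 118.2 ± 3.45, 142.5 ± 28.2 and 142.5 ± 16.5 CPM. All 3 had their lowest mean in libraries labelled c-FosDCh. Rpl38, whose loss alters the axial skeleton of the mouse through translation of Hox mRNAs, was at 55.5 ± 13.3, 61.9 ± 13.7 and 62.6 ± 11.5 CPM. Rpsa, also known as a laminin receptor, was at 261.4 ± 43.2, 332.1 ± 74.6 and 279.9 ± 33.8 CPM, and Rps3 at 411.7 ± 59.1, 481.4 ± 111.9 and 418.2 ± 52.7 CPM. Rpl13a was at 15.3 ± 1.73, 19.0 ± 0.396 and 16.4 ± 2.57 CPM, Rpl41, which encodes the smallest ribosomal protein, at 125.2 ± 11.6, 145.9 ± 32.7 and 135.8 ± 12.6 CPM, and the X-linked Rps4x at 277.8 ± 51.0, 325.7 ± 66.7 and 298.5 ± 34.8 CPM.

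Several ribosomal proteins have a second gene, and the ratio of copy to parent within a library is free of scaling. The 5 pairs with enough counts gave 15 exact two-sided permutation tests over libraries, and 0 had an adjusted p under 0.05. The smallest p such a test can give is 0.0571 with 3 against 4 libraries and 0.0286 with 4 against 4, so an adjusted p under 0.05 could not be reached in any of the 15, and the count of 0 says nothing about the pairs. Rpl22l1 and Rps27l ran at a steady fraction of their parents: Rpl22l1 had 24.9 to 37.2% of the counts of Rpl22 in libraries labelled c-FosDCh, 30.2 to 38.0% in c-FosWT DMM libraries and 24.8 to 33.6% in contralateral libraries, and Rps27l had 30.3 to 39.7%, 25.1 to 38.4% and 25.6 to 39.4% of those of Rps27. Rpl22 protein is known to curb the splicing of Rpl22l1 RNA. The log2 ratios of Rpl22l1 to Rpl22 and of Rps27l to Rps27 differed by at most 0.20 between groups (exact p of 0.2286 to 0.9429). Stretches of read length shared with transcripts of other genes made up 98.5% of Rps27 and 58.6% of Rpl22l1, and less of Rps27l and Rpl22. They made up 83.2% of Rpl3, the parent of Rpl3l. Multimapping reads are not in gene counts, so the size of these fractions is uncertain. An effect of shared reads on the ratios was not tested.

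Rpl36al, a second gene for the protein of Rpl36a, had 24, 29, 44 and 47 counts in libraries labelled c-FosDCh, against 17, 22 and 34 counts in c-FosWT DMM libraries and 18, 25, 25 and 28 counts in contralateral libraries. In CPM these were 1.75, 1.69, 2.75 and 3.73, against 0.996, 1.26 and 1.89 and against 1.13, 1.79, 1.49 and 1.49. The groups overlapped, and the log2 fold change between the DMM groups was 0.83 ± 0.35 (edgeR unadjusted p = 0.0373, adjusted p = 0.108). It was 0.23 with the marrow score as a covariate and 0.30 without the libraries labelled c-FosDCh 3 and 4. Its log2 ratio to Rpl36a averaged -3.69 ± 0.90 in libraries labelled c-FosDCh and -4.89 ± 0.14 in c-FosWT DMM libraries, with no overlap (difference 1.20, exact p = 0.0571, adjusted p = 0.4286). Its exons are overlapped on the same strand by Gm49383 over 63.1% of their length, so its counts are uncertain. Stretches of read length shared with transcripts of other genes made up 61.3% of Rpl36al and 84.6% of Rpl36a, so the ratio is uncertain too.

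Rpl39l stood at 0.871 to 4.91% of the counts of Rpl39 in libraries labelled c-FosDCh, 1.29 to 3.03% in c-FosWT DMM libraries and 3.49 to 6.17% in contralateral libraries. The log2 ratio averaged -5.52 ± 0.63 in c-FosWT DMM libraries and -4.53 ± 0.37 in contralateral libraries, with no overlap (difference -0.99, exact p = 0.0571, adjusted p = 0.4286), and the difference was -0.64 without c-FosWT DMM library 3. Against contralateral libraries, the libraries labelled c-FosDCh, with the ratio at -5.49 ± 1.04, differed by -0.96 (exact p = 0.1429), or by -0.55 without the library labelled c-FosDCh 1, and the fitted log2 fold change of the gene was -1.09 ± 0.39 (edgeR adjusted p = 0.584). Rpl3l, the form of Rpl3 used in striated muscle, had 570 counts in c-FosWT DMM library 1, 289 in contralateral library 2 and 117 in the library labelled c-FosDCh 2, and 3 to 45 in the other 8. These are the libraries with the highest muscle scores, 8.57, 7.80 and 6.06. Its log2 fold change between the DMM groups was -2.44 ± 1.53 (edgeR adjusted p = 0.244), and it became 0.26 without c-FosWT DMM library 1.

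**Figure D5:**
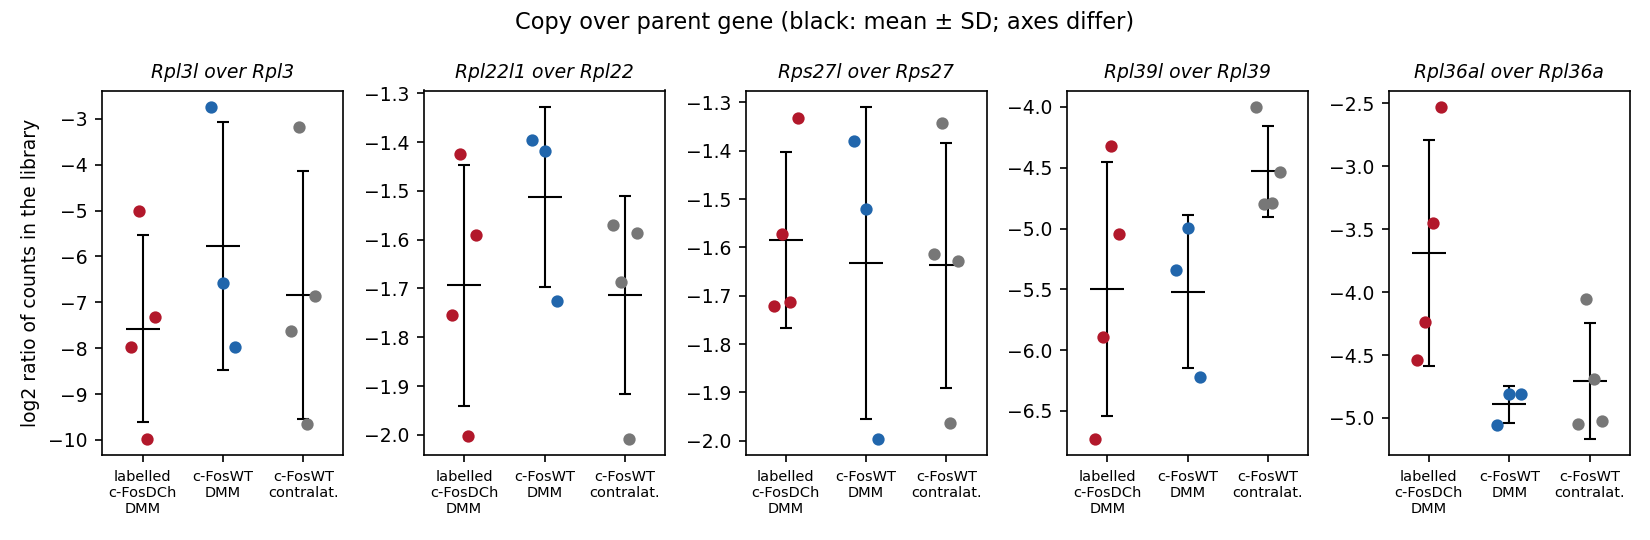
Log2 ratio of the counts of a copy to those of its parent gene in each library (y axes, which differ between panels), by group; black bars are means with SD. Rpl39l is lower relative to Rpl39 in all 3 c-FosWT DMM libraries than in the 4 contralateral ones, Rpl36al is higher relative to Rpl36a in all 4 libraries labelled c-FosDCh than in the c-FosWT DMM ones, and Rpl3l spans the widest range, from -9.98 to -2.74.

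The remaining copies differed little. Rpl7l1, a protein of 60S assembly, was at 53.2 ± 7.08 CPM in libraries labelled c-FosDCh, 49.6 ± 2.71 CPM in c-FosWT DMM libraries and 47.5 ± 3.49 CPM in contralateral libraries. Rps19bp1, a nucleolar binding partner of Rps19, was at 6.25 ± 1.25, 5.52 ± 0.915 and 6.21 ± 0.667 CPM. Neither passed in any comparison. Finally, 14 subunit genes had under 25% of shared 75-base stretches. Their median log2 fold change was -0.25 for libraries labelled c-FosDCh over c-FosWT DMM libraries, against -0.01 over all genes. It was 0.02 for c-FosWT DMM over contralateral libraries, against -0.01 over all genes. For libraries labelled c-FosDCh over contralateral libraries it was -0.22, against 0 over all genes. An effect of shared reads on the fold changes was not tested.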

How the data were processed

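Poly(A) RNA was sequenced as single reads of 75 bases, per the labels' protocols. The submitters' processing notes name build GRCm38 and the tools STAR 2.6.1a, bcl2fastq 2.19.1.403, DESeq2 1.22.2 and RSEM. The strand column and annotation release used are not stated in those notes or the labels. As their processed data, the authors deposited raw counts per gene, 1 file per library, with 4 read classes that are not genes: unmapped (7.33 to 26.33% of reads), multimapping (6.79 to 10.19%), no feature (33.18 to 41.97%) and ambiguous (0.62 to 0.94%). These stayed out of library sizes and tests. Symbols, coordinates and transcripts came from GENCODE M21 by unversioned identifier (55240 genes matched, 54673 with the same version).

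The main test was edgeR 4.0.16 (R 4.3.3). After filterByExpr, 18125 genes remained; with TMM factors, 1 robust quasi-likelihood model with group as its term was fitted to the 11 libraries (common coefficient of variation 0.315). The threshold was 0.05 on Benjamini-Hochberg adjusted p, over every gene tested. A standard error is the absolute log2 fold change over the square root of F. Levels are CPM on TMM-scaled totals, and log2 CPM has a prior count of 2. Ratios of copies used 0.5 added to each count. In simulated counts edgeR called 42, 35 and 47% of 2-fold and 89, 87 and 92% of 4-fold changes, for libraries labelled c-FosDCh against c-FosWT DMM, c-FosWT DMM against contralateral, and libraries labelled c-FosDCh against contralateral. Alternatives used limma 3.58.1 and DESeq2 1.42.0; Python 3.11.15, pandas 2.3.3, scipy 1.17.1 and matplotlib 3.10.9 served the rest.

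Replicate libraries always differed by more than sampling noise (lowest chi-square per degree of freedom 31.03). Libraries labelled c-FosDCh were numbered in accession order, since the labels give 1 number to 2 of them. P-values of the main fit rest on the spread between libraries, and the 2 knees of a c-FosWT mouse were treated there as independent. The 3 pairs of c-FosWT knees come from the same animals by their titles. Deviations of paired libraries correlated at -0.17, -0.18 and 0.25 over all genes, and at -0.62, -0.44 and 0.11 over the members. The members and all gene lists were chosen with earlier results of these data known. Named members were a fixed list, the called members or the 5 with the smallest p of each comparison, the 6 highest per kilobase, and the 4 most and least variable; of other lists, up to 3 called genes were named by smallest p, and Tsr2 was also named. Genes that departed from the shared pattern were named after their values were seen. A few genes that this rule picks are not reported here.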

Additional observations from a re-analysis of the deposited data

Results flagged for a closer look

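In 6 of 108 gene-by-group sets of 4 libraries, 1 library lay far from the rest of its group (gap to the nearest value over the whole range, against Dixon's 95% limit), and chance alone gives about 1 in 20. Rpl4 was at 239.1 CPM in the library labelled c-FosDCh 4, below 313.2 to 322.4 CPM in the other 3 of its group. Rpl8 was at 272.3 CPM in contralateral library 2, below 333.9 to 340.9 CPM in the other contralateral libraries, and Rps19bp1 was at 5.21 CPM there, below 6.45 to 6.65 CPM. Rpl3l, the muscle form of Rpl3, was at 6.80 CPM in the library labelled c-FosDCh 2, above 0.188 to 1.11 CPM in the rest of its group. It was also at 20.6 CPM in contralateral library 2, above 0.298 to 2.08 CPM. Rps27l was at 29.05 CPM in contralateral library 4, above 24.3 to 24.99 CPM in the other contralateral libraries.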

How the results depend on the processing

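For libraries labelled c-FosDCh over c-FosWT DMM libraries, the count of members called (2) was 1 with upper quartile scaling or no filter on low counts, 6 with library totals alone and 9 with DESeq2. It was 0 with the 2 groups fitted alone, with the marrow, muscle or cartilage score as a covariate, without the libraries labelled c-FosDCh 3 and 4, and without the 2 muscle-rich libraries. All genes called (2616) then also numbered 0, and were 1443 without the filter and 5221 with DESeq2. Leaving out 1 library gave 0 to 11 members. The members' median was -0.013 with the marrow score. Relative to all genes it was -0.245 to -0.232 under every scaling, and library totals alone moved the median of all genes to -0.184. For c-FosWT DMM over contralateral libraries the members' median of 0.01 was -0.163 with the marrow score, 0.083 with the muscle score, -0.023 with the cartilage score and -0.043 with upper quartile scaling. For libraries labelled c-FosDCh over contralateral libraries DESeq2 called 1 member. With animal as a replicate block, paired knees gave 0 members and a median of 0.081, and the blocked limma-voom fit gave 3 members between the DMM groups, as did the same fit without the block; the block changed no other call. Without 3 rRNA-like loci and mitochondrial genes the share was 1.014% in libraries labelled c-FosDCh, 1.348% in c-FosWT DMM libraries and 1.286% in contralateral libraries. Those 3 loci took 7.24 to 14.67% of gene counts. By mean log2 CPM, 40S minus 60S was 0.458, 0.470 and 0.458. Rpl3l between the DMM groups changed sign without the muscle-rich libraries (0.255), and ranged from -4.162 to 0.258 with 1 library left out. With 1 library left out, log2 ratios that changed sign ranged as follows: between the DMM groups, Rpl39l from -0.365 to 0.437 and Rps27l from -0.135 to 0.173; for c-FosWT DMM over contralateral libraries, Rpl3l from -0.448 to 2.278, Rps27l from -0.121 to 0.187 and Rpl36al from -0.302 to 0.028; for libraries labelled c-FosDCh over contralateral libraries, Rpl3l from -1.686 to 0.473, Rps27l from -0.057 to 0.150 and Rpl22l1 from -0.078 to 0.123. The cause of these changes was not tested. Of 499 further values for 19 named results, 456 kept direction and side of the threshold. Only Rps16 and Rpl4 between the DMM groups had passed at first, so this count says little about those calls. Members under about 2 CPM (Rpl39l, Rpl36al, Rpl24) are limited by few counts, and Rpl36al and Rpl24 also by overlap with other genes on the same strand.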
